A study of Mus musculus with 8 samples.

Results

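The 35 genes described here serve protein folding in the endoplasmic reticulum (ER) and the unfolded protein response. They were taken by symbol from the table of 16464 genes measured in the posterior capsule of the mouse knee joint. All 35 were found in it, as 11 folding chaperones and co-chaperones, 6 disulfide enzymes, 2 collagen chaperones, 6 genes of ER-associated degradation, 4 stress sensors and their factors, and 6 genes of the Atf4 arm. RNA was sequenced from 8 libraries of wild-type male C57BL/6 mice aged 10 weeks. A group of 4 was naive, and in the cast group (n = 4) the knee had been immobilized at 140° in a cast for 2 weeks, starting at 8 weeks of age. The labels do not state whether each library is a different animal, and p values therefore reflect only how much these samples vary, which may be technical. The whole capsule was sequenced, so that fewer cells of a type and less RNA per cell cannot be told apart.

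Proteins that a cell secretes, among them the procollagens of a joint capsule, are folded in the ER by chaperones such as Hspa5 (BiP) and Hsp90b1 (Grp94), by the lectins Calr and Canx, and by enzymes that form disulfide bonds. Chains that fail to fold are passed back to the cytosol and degraded. When unfolded protein builds up, the membrane sensors Ern1 (IRE1), Eif2ak3 (PERK) and Atf6 start the unfolded protein response: Ern1 splices the Xbp1 transcript, Atf6 is cut to release a transcription factor, and Eif2ak3 slows translation while letting Atf4 be made. Chaperone genes are known targets of Atf6 and Xbp1 through the ER stress element, and genes of amino acid supply are targets of Atf4 through the amino acid response element.

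Values are normalised read counts as the authors deposited them, from which whole reads could be recovered. The libraries held 5956148 to 7381255 recovered reads, except naive replicate 4, which held 1503880. Correlations of log2 values across genes were 0.983 to 0.985 among naive replicates 1 to 3 and 0.903 to 0.915 between these and naive replicate 4 (genes are not independent replicates). Fibroblast and lining markers were abundant. Pdgfra was at 925 to 977 in naive and 998 to 1149 in cast libraries. Prg4, the lubricin of synovial lining, was at 2391 to 5315 in naive and 1377 to 3127 in cast libraries, while the tendon marker Tnmd reached 8.73. The summed level of 15 skeletal muscle markers ran from 129 to 3098 in naive libraries, lowest in naive replicate 4, and from 23.0 to 429.8 in cast libraries, highest in cast replicate 1; 6 of the 15 fell. That of 14 neutrophil and marrow markers ran from 30.6 to 81.5 and from 911 to 6728, and 10 rose. All 9 erythroid markers rose, with sums of 1727 to 2986 in naive and 6054 to 29733 in cast libraries. Plasma cells, which carry much ER, were checked with 12 markers of plasma and B cells, of which 11 were tested and 1 (Prdm1) rose. The antibody joining chain Jchain was at most 0.161 in naive libraries and 4.78, 10.04, 0 and 0 in cast replicates 1 to 4. Tnfrsf17, another of these markers, went the other way, at 0.645 to 3.23 in naive and 0 to 0.899 in cast libraries. Mzb1 was at most 0.151 in naive and 0.824 in cast libraries. The part of these cell types in the members' values was not tested.

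The response elements through which these genes are known to be induced were searched in RefSeq promoters (build GRCm38.p6, 250 bases before to 50 after each start, both strands), which 30 of the 35 members had; Manf, Hyou1, Fkbp10, Derl1 and Atf6 were not matched. The ER stress element, spelled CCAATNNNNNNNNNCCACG, was present in 10 of the 30 (Hspa5, Hsp90b1, Calr, Canx, Dnajc3, Creld2, Pdia6, Ero1lb, Syvn1 and Derl3), against 37 of all 27025 genes with a promoter (0.137%). Its short form ATTGGNCCACG was present in Herpud1 and Dnajb11, against 12 of all genes (0.0444%). The amino acid response element TGATGNAA was present in 4 (Herpud1, Trib3, Chac1 and Asns), against 1219 of all genes (4.51%). A match is a description of the letters and not a site shown to be bound. Stretches of 7 promoters are shown because these genes carry the chaperone, degradation and Atf4 results below; each is written 5′ to 3′ on the gene's strand, with the element in capitals and 8 bases on either side. Where the capitals begin with CGTGG or TTGCATCA, the element lies on the other strand.
Hspa5: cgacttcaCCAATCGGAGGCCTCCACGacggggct
Hsp90b1: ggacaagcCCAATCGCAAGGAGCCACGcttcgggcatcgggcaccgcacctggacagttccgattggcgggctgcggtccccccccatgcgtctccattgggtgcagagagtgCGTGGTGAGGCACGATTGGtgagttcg
Calr: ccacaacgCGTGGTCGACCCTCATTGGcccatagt
Canx: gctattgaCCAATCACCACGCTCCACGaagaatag
Derl3: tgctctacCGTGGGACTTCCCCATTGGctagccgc
Herpud1: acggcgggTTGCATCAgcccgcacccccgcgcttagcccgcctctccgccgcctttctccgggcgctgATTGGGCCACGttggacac
Asns: cagccacaTGATGAAActtcccgc

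The Hspa5 stretch lies at chr2:34772017-34772051 (plus strand) and that of Hsp90b1, which holds the element in both orientations, at chr10:86705525-86705664 (minus strand). Those of Calr and Canx lie at chr8:84847067-84847101 and chr11:50325792-50325826 (both minus strand), and those of Derl3 and Herpud1 at chr10:75893234-75893268 and chr8:94386309-94386395 (both plus strand). In Herpud1 the amino acid response element comes first and the short ER stress element second. The Asns stretch lies at chr6:7693217-7693240 (minus strand). The 12 members with either ER stress element had a median log2 fold change of 0.12 (range -0.46 to 0.85), and the 18 matched members with neither had one of 0.14 (range -0.91 to 0.72). Outside the members, 27 genes held the long element, 8 of them were tested, and 0 of the 8 passed by limma (1 at an unadjusted p under 0.05, Acacb).

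Casting is compared with the naive state to ask how immobility of the knee affects expression in the capsule. None of the 35 members passed the test in either direction by limma (Benjamini-Hochberg adjusted p at most 0.05 over 15120 genes), where 12.0% of all genes tested did, 6.51% higher and 5.46% lower. At an unadjusted p under 0.05 there were 4 members (P4hb, Serpinh1, Herpud1 and Derl3; 11.4%), against 26.6% of all genes. By edgeR 0 members passed (13.5% of all genes), and by DESeq2 there were 2, P4hb and Serpinh1 (18.2% of all genes). In 2 members, Herpud1 and Derl3, the 4 libraries of a group all lay above those of the other, against 20.5% of all genes. Fold changes are cast minus naive, from log2(value + 1), with their standard error, a scale that understates the change of low genes, and adjusted p values are from limma unless another tool is named. The members' median was 0.12 (all genes 0.07) and their range ran from -0.91 for Serpinh1 to 0.85 for Derl3. For 27 members (77.1%) the 95% interval of the change lay between -1 and 1, so that a change of value + 1 larger than 2-fold lay outside it. This held for 54.0% of all genes. In low genes such an interval can still hold a change larger than 2-fold in the value itself. The other 8 members were Hsp90b1, Canx, Dnajb9, Pdia3, Serpinh1, Derl3, Chac1 and Asns.

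**Figure D1:**
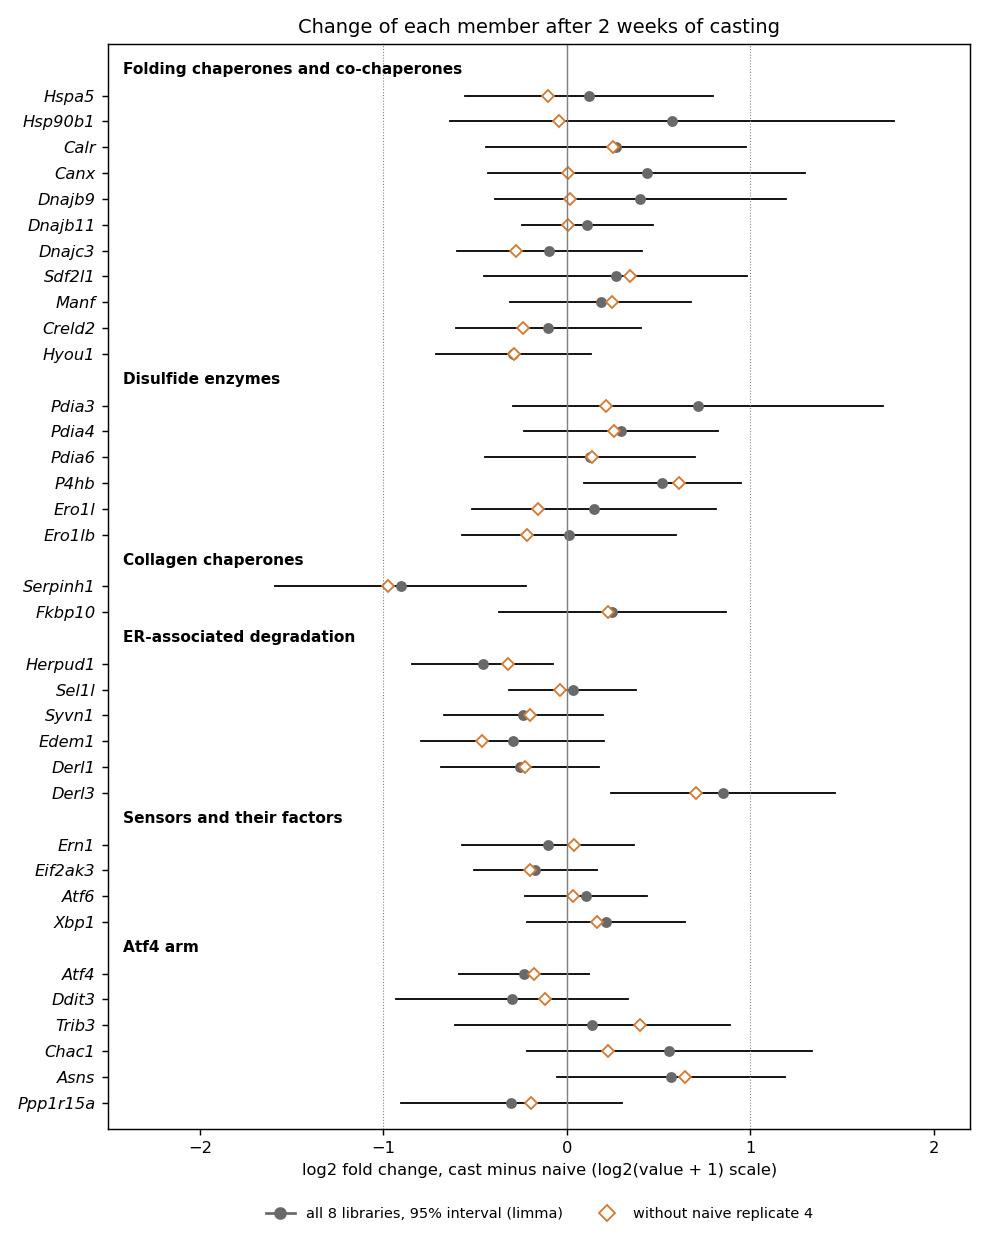
Log2 fold change of each of the 35 members (cast minus naive, log2(value + 1) scale, x axis), by role, with the 95% interval from limma over all 8 libraries (dots and lines) and the value without naive replicate 4 (diamonds). Intervals of P4hb, Serpinh1, Herpud1 and Derl3 lie off 0, and the values of Hsp90b1, Canx and Pdia3 move toward 0 without naive replicate 4.

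Levels were compared between genes per 1000 bases of the longest protein-coding transcript, as means of normalised counts. In naive capsules the collagen chaperone Serpinh1 was the highest member at 349, followed by the lectin Calr at 248, P4hb at 169 and Hsp90b1 at 134. Over naive replicates 1 to 3 alone Hsp90b1 (169) came before P4hb (158). In cast capsules Calr was highest at 318, followed by P4hb at 243, Serpinh1 at 189 and Hsp90b1 at 169.7. The lowest on this scale were the Atf4 target Chac1 (1.56 and 2.41), Trib3 (2.25 and 2.30) and Derl3 (0.296 and 1.13, naive and cast).

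Of the 11 folding chaperones and co-chaperones, 0 passed by limma, edgeR or DESeq2, 0 were at an unadjusted p under 0.05, and their median log2 fold change was 0.18. Hspa5, the ER member of the Hsp70 family and the usual reporter of ER stress (chr2:34771970-34777547, plus strand, build GRCm38 as for all coordinates here), was 493, 454, 516 and 261 in naive replicates 1 to 4 and 281, 454, 557 and 592 in cast replicates 1 to 4. Naive replicate 4 and cast replicate 1 were the low libraries of their groups and the groups overlapped (log2 fold change 0.12 ± 0.30, 95% interval -0.55 to 0.79, adjusted p = 0.834), and without naive replicate 4 the change was -0.10 (adjusted p = 0.814). Hsp90b1, the ER member of the Hsp90 family, was 532, 453, 446 and 85.4 in naive replicates 1 to 4 and 294, 444, 587 and 593 in cast replicates 1 to 4. Its value in naive replicate 4 was far below the other 7 libraries (log2 fold change 0.57 ± 0.54, 95% interval -0.64 to 1.78, adjusted p = 0.547), and without that library the change was -0.04 (adjusted p = 0.928). Exons of Hsp90b1 overlap 1810014B01Rik on the opposite strand and Gm15344 and Gm25745 on the same strand, so its reads are uncertain.

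Calr, a soluble lectin that holds glycoproteins while they fold, was 590.1, 608, 446 and 525 in naive replicates 1 to 4 and 326, 726, 905 and 822 in cast replicates 1 to 4. The highest 3 of all 8 libraries were cast replicates 2 to 4 and the lowest was cast replicate 1 (log2 fold change 0.27 ± 0.32, 95% interval -0.44 to 0.98, adjusted p = 0.638); without cast replicate 1 the change was 0.60 (adjusted p = 0.0917). Canx, its membrane-bound relative, was 572, 526, 530.1 and 165 in naive replicates 1 to 4 and 423, 515, 616 and 659 in cast replicates 1 to 4. Naive replicate 4 was the lowest library and the groups overlapped (log2 fold change 0.43 ± 0.39, 95% interval -0.43 to 1.30, adjusted p = 0.521), and without it the change was 0.01 (adjusted p = 0.985).

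The groups of all 7 other genes of this kind overlapped. Dnajb9, which binds Ern1 as well as unfolded chains, was 36.2 ± 15.3 in naive and 44.5 ± 9.24 in cast libraries (means ± SD of 4 libraries, as elsewhere), and Dnajc3, an inhibitor of translation kinases and a co-chaperone, was 235 ± 53.0 in naive and 218 ± 43.3 in cast libraries. Both were lowest among naive libraries in naive replicate 4, without which their changes went from 0.40 to 0.02 and from -0.10 to -0.28. Dnajb11 was 50.7 ± 7.40 in naive and 54.5 ± 2.39 in cast libraries, the narrowest interval of the 11 (log2 fold change 0.11 ± 0.16, 95% interval -0.24 to 0.47, adjusted p = 0.695). Hyou1, the exchange factor of Hspa5, was 117 ± 17.3 in naive and 96.2 ± 17.5 in cast libraries (log2 fold change -0.29 ± 0.19, adjusted p = 0.369). The secreted stress proteins Manf and Creld2 had log2 fold changes of 0.18 and -0.10, and Sdf2l1, a partner of Dnajb11, one of 0.27, with adjusted p values of 0.642, 0.813 and 0.642. Exons of Manf overlap Rbm15b on the same strand, which counting by strand cannot resolve, and Dcaf1 on the opposite strand, and whether counting used the strand is not given in the sources used here.

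**Figure D2:**
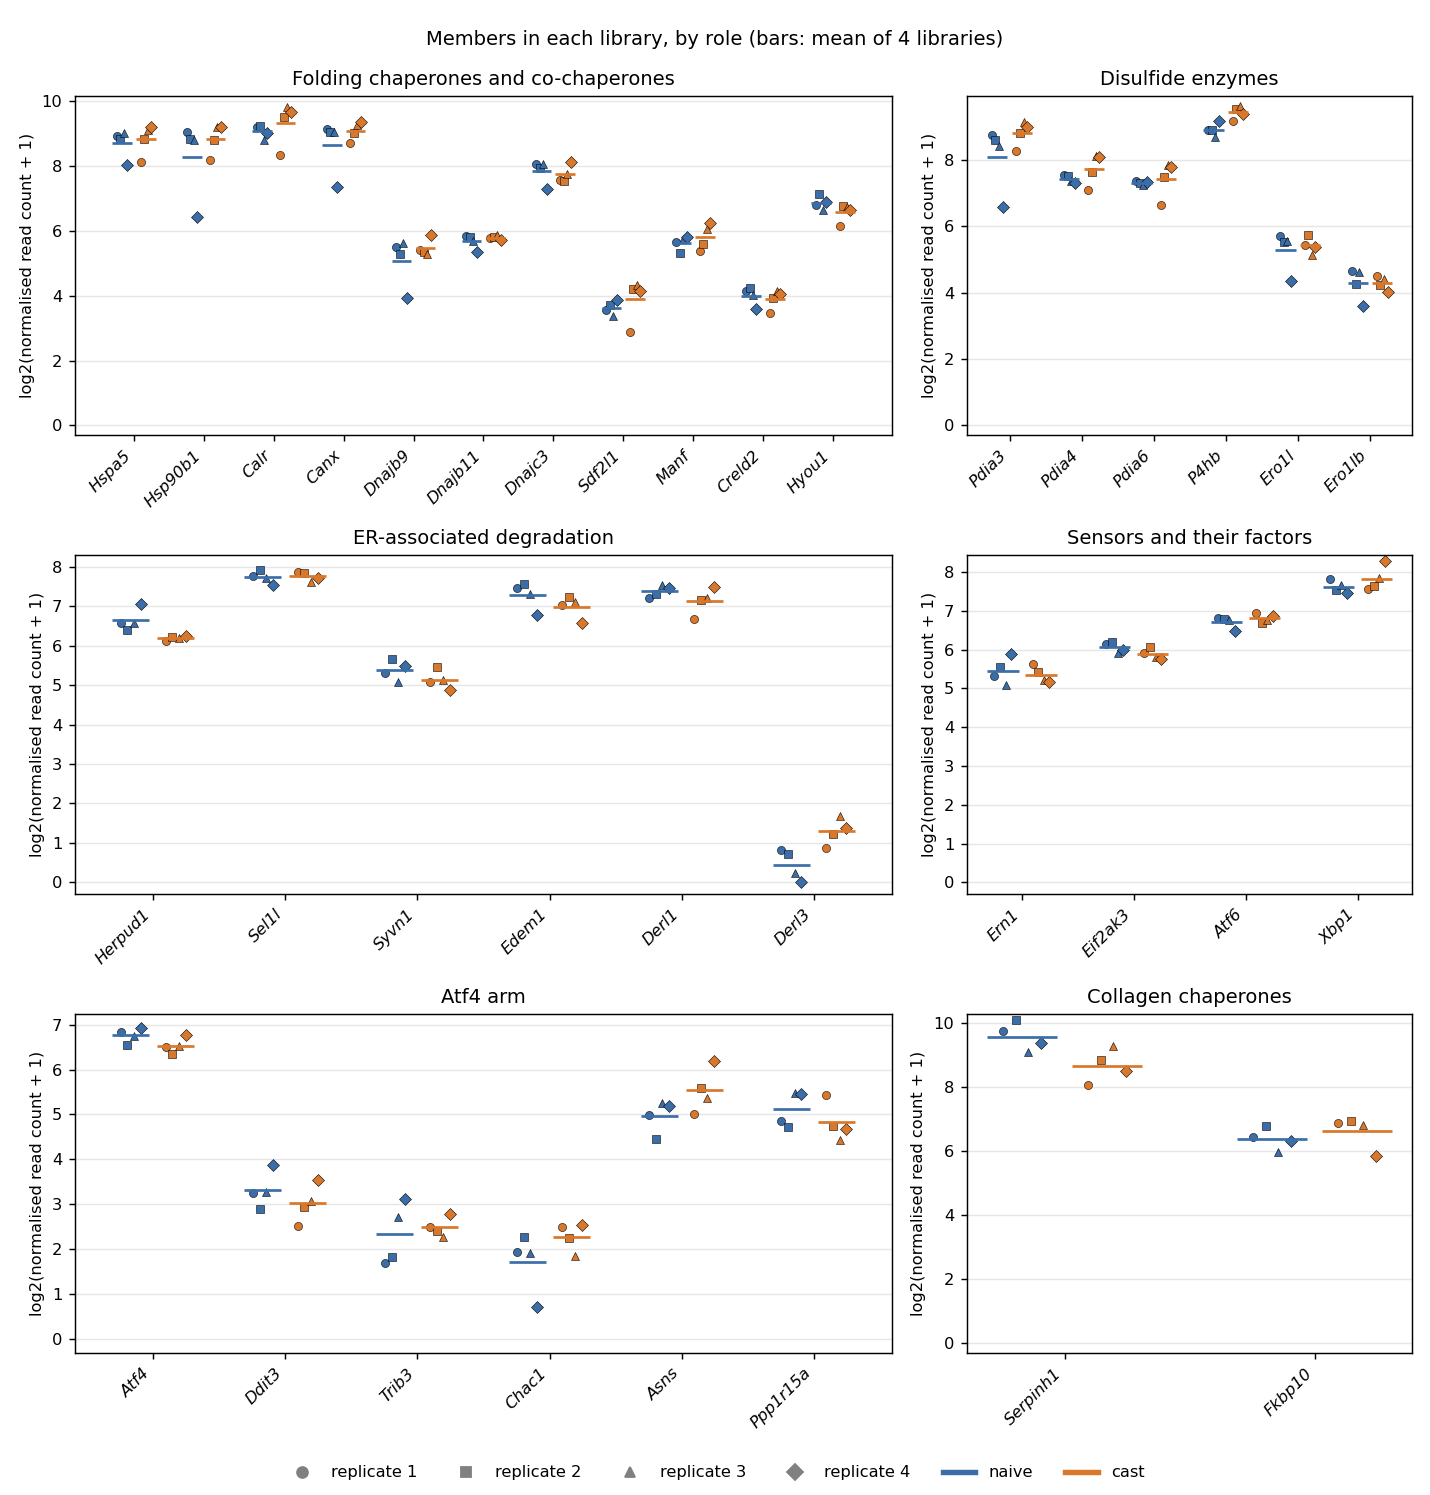
Level of each member in each of the 8 libraries (y axes, log2 of normalised read count + 1, 1 panel per role), with points for libraries, shaped by replicate and coloured by group, and bars for the mean of the 4 log2 values. Naive replicate 4 is low in Hspa5 and Hsp90b1, cast replicate 1 is low in Hspa5 and Calr, and Herpud1 is lower in all 4 cast than in all 4 naive libraries.

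Of the 6 disulfide enzymes 0 passed by limma and by edgeR, 1 by DESeq2 (P4hb), and all 6 had log2 fold changes above 0 (median 0.22; 8429 of the 15120 genes were above 0). P4hb is a protein disulfide isomerase and the beta subunit of prolyl 4-hydroxylase, the enzyme that hydroxylates procollagen (chr11:120560298-120573253, minus strand), and it was 478, 474, 408 and 580.2 in naive replicates 1 to 4 and 577, 745, 788 and 671 in cast replicates 1 to 4. Cast replicates 2 to 4 lay above every naive library, while cast replicate 1 lay just under naive replicate 4. The change was 0.52 ± 0.19 with a 95% interval of 0.09 to 0.95, a 1.43-fold level (1.07 to 1.93), and missed the threshold by limma (adjusted p = 0.114). It passed by DESeq2 (adjusted p = 0.0304) and with limma's array weights (adjusted p = 0.00522), a setting that called 3985 of all 15120 genes. Without naive replicate 4 it was 0.61 and also passed (adjusted p = 0.0342, where 17.6% of all genes passed). With the level of muscle markers as a covariate it was 0.13 (adjusted p = 0.698), and adjusted p over all alternatives ran from 0.00522 to 0.698.

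Pdia3 (ERp57), the isomerase that works with Calr and Canx, was 427, 386, 342 and 93.8 in naive replicates 1 to 4 and 308, 448, 561 and 504 in cast replicates 1 to 4. It had the largest log2 fold change of the 6 but also a naive library far below the rest (log2 fold change 0.72 ± 0.45, 95% interval -0.29 to 1.73, adjusted p = 0.354), and without naive replicate 4 the change was 0.21 (adjusted p = 0.538). Pdia4 was 172 ± 13.7 in naive and 220.04 ± 67.3 in cast libraries (log2 fold change 0.30 ± 0.24, adjusted p = 0.475) and Pdia6 158 ± 5.27 in naive and 181 ± 58.9 in cast libraries (log2 fold change 0.13 ± 0.26, adjusted p = 0.791). Both were highest in cast replicates 3 and 4 and lowest in cast replicate 1. Ero1l and Ero1lb, the oxidases that recharge the isomerases, were 40.2 ± 14.2 in naive and 42.5 ± 7.65 in cast libraries and 19.2 ± 6.03 in naive and 18.7 ± 2.95 in cast libraries respectively, with log2 fold changes of 0.15 and 0.01. Without naive replicate 4 these turned to -0.16 and -0.22. Exons of Pdia3 overlap Catsper2 and those of Pdia6 overlap Atp6v1c2 on the opposite strand.

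The 17 chaperones and disulfide enzymes tended to be low in the same libraries of a group. Their summed level was 4074, 3852, 3617 and 2468 in naive replicates 1 to 4 and 2919, 4248, 5093 and 4979.8 in cast replicates 1 to 4. Naive replicate 4 was the lowest naive library in 11 of the 17 genes (41.7% of all genes tested were lowest there) and cast replicate 1 the lowest cast library in 12 of the 17 (33.8% of all genes tested). Cast replicates 3 and 4 held the highest of all 8 values in 13 of the 17, 7 and 6 genes respectively. The share of all genes highest in these libraries was not counted, so this is not shown to be particular to the 17. Beside this, cast replicate 1 had the highest summed level of plasma and B cell markers, 482 against 85.6 to 166 in the other cast libraries, and the lowest of fat cell markers, 2094 against 3721 to 8215. Their part in the members' values was not tested. Leaving out cast replicates 1 and 2 together, an alternative chosen after seeing the data, left 0 of the 35 members past the threshold by limma. The median log2 fold change of the 17 was then 0.50 (0.18 with all libraries), and that of all genes 0.08. This choice drops the cast library that was lowest in 12 of the 17 and keeps naive replicate 4. A higher median was thus in part fixed beforehand. Without naive replicate 4 alone, the median of the 17 was 0.01.

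**Figure D3:**
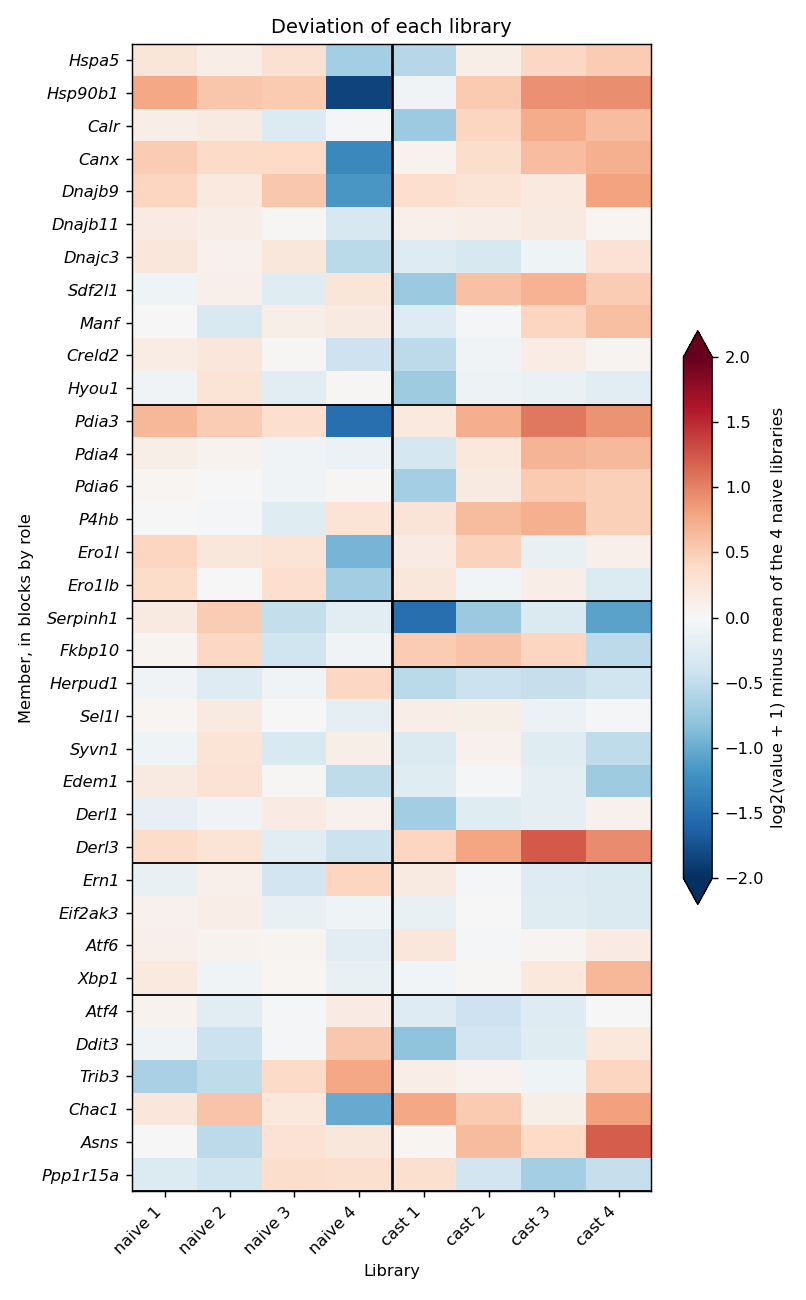
Deviation of each member in each library, naive or cast, from the mean of the naive libraries (log2(value + 1) scale, colour), with genes in rows by role and the 8 libraries in columns. Hspa5, Calr, Pdia4 and Pdia6 are below the naive mean in cast replicate 1, and a set led by Hsp90b1, Pdia3 and Canx is far below it in naive replicate 4.

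Most members that were low in naive replicate 4 had transcripts of low GC content. Of the 35 members, 9 were more than 0.7 lower on the log2 scale there than the mean of naive replicates 1 to 3: Hspa5 (-0.90), Hsp90b1 (-2.46), Canx (-1.71), Dnajb9 (-1.54), Dnajc3 (-0.72), Pdia3 (-2.02), Ero1l (-1.24), Ero1lb (-0.92) and Chac1 (-1.34). Apart from Chac1, a low gene with 57.4% GC, their longest protein-coding transcripts had 40.6% (Dnajb9) to 46.9% GC (Pdia3). Across 31 members with a mean of at least 10, this deviation correlated with GC content with r = 0.695, and across 9683 genes with r = 0.694; the genes share the same 4 libraries and are no replicates, so these are descriptions. Among all these genes under 44% GC the median deviation was -1.41, and at 56% or more it was 0.48. In cast replicate 1 the deviation from the other cast libraries had r = 0.0191 with GC over the 31 members.

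Without naive replicate 4 the members' median log2 fold change was 0.01 (0.12 with all libraries). That of all genes was also 0.01 (0.07 with all libraries). Of the 35 changes 21 moved toward 0, a share that was not counted over all genes. P4hb was the 1 member that passed, where 17.6% of all genes did. Removing the trend of each library with GC was an alternative chosen after seeing the data. By limma 2 of the 35 members then passed, against 2555 of 13838 genes tested in that fit. They were P4hb (0.57, adjusted p = 0.0277) and Herpud1 (-0.43, adjusted p = 0.0374). Hspa5 was -0.11 (adjusted p = 0.789).

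**Figure D4:**
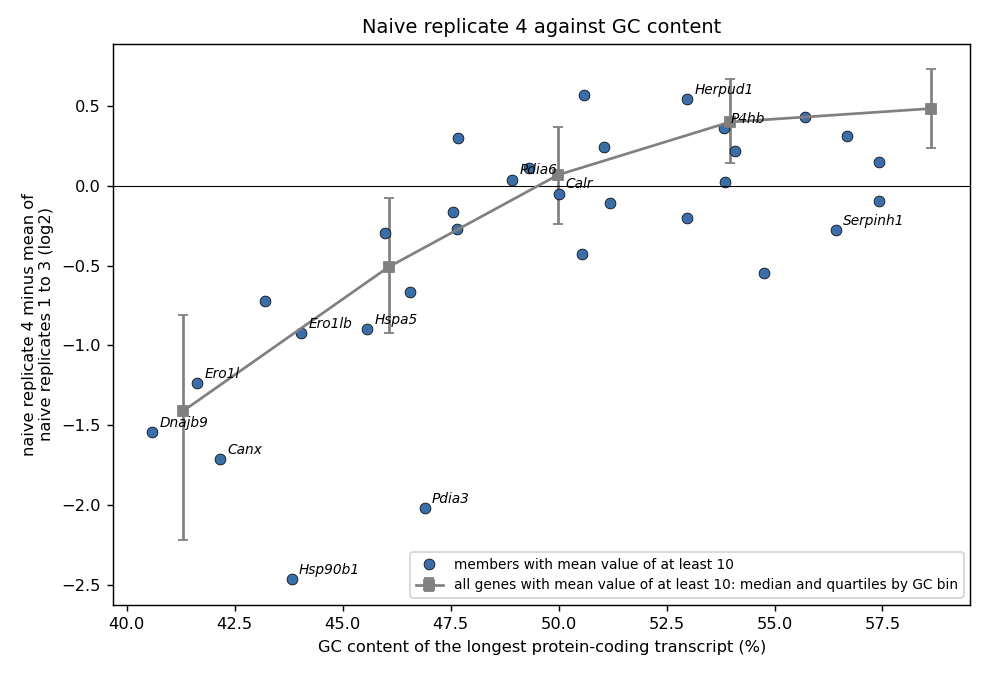
Deviation of naive replicate 4 from the mean of naive replicates 1 to 3 (log2 scale, y axis) against the GC content of the longest protein-coding transcript (percent, x axis), for all genes with a mean of at least 10 as medians and quartiles of GC bins and for single members as labelled points. Deviations are lower at low GC: in the lowest bin the median of all genes is -1.41.

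Of the collagen chaperones, Serpinh1 (Hsp47), which binds procollagen triple helices in the ER (chr7:99345376-99353239, minus strand), was 865, 1089.6, 554 and 664 in naive replicates 1 to 4 and 268, 461, 626 and 363 in cast replicates 1 to 4. Cast replicates 1, 2 and 4 lay below every naive library, and cast replicate 3 lay above naive replicate 3. Its change missed the threshold by limma (log2 fold change -0.91 ± 0.31, 95% interval -1.59 to -0.22, adjusted p = 0.0878) and by edgeR (adjusted p = 0.0919), and passed by DESeq2 (adjusted p = 0.0295; 0.0295 to 0.333 over all alternatives). Leaving out 1 library at a time gave log2 fold changes of -1.11 to -0.70. Fkbp10, a prolyl isomerase that acts on procollagen, was 85.7, 110.2, 62.0 and 78.3 in naive replicates 1 to 4 and 117, 123, 112 and 56.8 in cast replicates 1 to 4. Cast replicate 4 was the lowest of the 8, the other 3 cast libraries lay above every naive library, and the groups overlapped (log2 fold change 0.25 ± 0.28, 95% interval -0.37 to 0.87, adjusted p = 0.615). Exons of Fkbp10 overlap Nt5c3b on the opposite strand.

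The procollagen transcripts that these chaperones serve varied as much within a group as between groups. The sum of Col1a1, Col1a2 and Col3a1 was 28248, 35752, 13439 and 19463 in naive replicates 1 to 4 and 35894, 22019.9, 25846 and 9721 in cast replicates 1 to 4. Per 1000 of this sum, a ratio chosen after the values were seen and given without a test, Serpinh1 was 30.6, 30.5, 41.2 and 34.1 in naive replicates 1 to 4 and 7.47, 20.9, 24.2 and 37.4 in cast replicates 1 to 4. Cast replicates 1 to 3 lay below every naive library and cast replicate 4 did not. Fkbp10 was lowest in cast replicate 4, the library with the lowest collagen sum, while P4hb there was 671, above every naive library.

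In ER-associated degradation 0 of 6 members passed by limma, edgeR or DESeq2, 2 were at an unadjusted p under 0.05, and the median log2 fold change was -0.25. Herpud1, a membrane protein that gathers the degradation complex and a known target of several arms of the response (chr8:94386438-94395377, plus strand), was 94.9, 84.1, 94.9 and 133 in naive replicates 1 to 4 and 68.7, 74.2, 72.4 and 75.6 in cast replicates 1 to 4. Every cast library was below every naive library, naive replicate 4 was the highest, and the cast libraries were within 68.7 to 75.6 (log2 fold change -0.46 ± 0.17, 95% interval -0.84 to -0.07, adjusted p = 0.122). It passed with limma's array weights (adjusted p = 0.0432) and with a covariate for muscle markers, where it was -0.79 (adjusted p = 0.0241); over all alternatives adjusted p ran from 0.0241 to 0.344. Derl3, of the derlin family that helps chains leave the ER (chr10:75893413-75895941, plus strand), was 0.753, 0.645, 0.165 and 0 in naive replicates 1 to 4 and 0.824, 1.35, 2.18 and 1.60 in cast replicates 1 to 4. All cast libraries were above all naive libraries, on 10 recovered reads in the naive and 42 in the cast group (log2 fold change 0.85 ± 0.27, 95% interval 0.24 to 1.46, adjusted p = 0.0746), and it passed with array weights (adjusted p = 0.0167; 0.0167 to 0.202 over all alternatives).

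The widely expressed Derl1 was 168 ± 17.3 in naive and 142 ± 31.0 in cast libraries (log2 fold change -0.26 ± 0.19, adjusted p = 0.446). Sel1l and Syvn1 (Hrd1), the adaptor and the ubiquitin ligase at the core of the complex, were 213 ± 23.0 in naive and 217 ± 18.2 in cast libraries and 41.1 ± 7.28 in naive and 34.7 ± 6.11 in cast libraries respectively, and their changes of 0.03 and -0.24 on the log2 scale had adjusted p = 0.919 and 0.480. Edem1, which trims mannose from chains bound for degradation, was 158 ± 35.1 in naive and 128 ± 24.4 in cast libraries (log2 fold change -0.29 ± 0.22, adjusted p = 0.446; -0.46 without naive replicate 4). The groups of all 4 overlapped. Exons of Syvn1 overlap Mrpl49 on the opposite strand.

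Among the sensors and their factors 0 of 4 passed by limma, edgeR or DESeq2, 0 were at an unadjusted p under 0.05, and log2 fold changes ran from -0.17 to 0.21. Xbp1, whose transcript Ern1 splices, was 223, 186, 201 and 177 in naive replicates 1 to 4 and 189, 199, 227 and 311 in cast replicates 1 to 4. Cast replicate 4 was the highest library and cast replicates 1 and 2 lay within the naive range (log2 fold change 0.21 ± 0.19, 95% interval -0.22 to 0.64, adjusted p = 0.530). These totals per gene do not separate spliced from unspliced Xbp1. Ern1 was 43.99 ± 10.99 in naive and 40.4 ± 6.31 in cast libraries, Eif2ak3 66.0 ± 6.22 in naive and 58.5 ± 5.49 in cast libraries, and Atf6 104 ± 10.4 in naive and 112 ± 8.77 in cast libraries. Their adjusted p values were 0.794, 0.511 and 0.693, and the 95% intervals of all 4 lay between -1 and 1.

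In the Atf4 arm 0 of 6 members passed by limma, edgeR or DESeq2, 0 were at an unadjusted p under 0.05, and the median log2 fold change was -0.05. Atf4, which is regulated in large part at translation, was 113, 93.1, 106 and 121 in naive replicates 1 to 4 and 89.5, 80.6, 90.4 and 107 in cast replicates 1 to 4. The groups overlapped (log2 fold change -0.23 ± 0.16, 95% interval -0.59 to 0.12, adjusted p = 0.390). Ddit3 (CHOP), a transcription factor induced under lasting ER stress, was 8.59, 6.45, 8.76 and 13.6 in naive replicates 1 to 4 and 4.78, 6.74, 7.50 and 10.7 in cast replicates 1 to 4. Naive replicate 4 was highest and cast replicate 1 lowest (log2 fold change -0.30 ± 0.28, 95% interval -0.93 to 0.33, adjusted p = 0.547), and without naive replicate 4 the change was -0.12. Exons of Ddit3 overlap Mars on the opposite strand, so its reads are uncertain.

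Asns, asparagine synthetase, was 30.6, 20.8, 37.2 and 35.6 in naive replicates 1 to 4 and 31.1, 47.4, 40.1 and 71.8 in cast replicates 1 to 4. Cast replicate 4 was the highest and cast replicates 2 to 4 lay above every naive library (log2 fold change 0.57 ± 0.28, 95% interval -0.05 to 1.19, adjusted p = 0.231). Trib3, a pseudokinase that binds Atf4 and Ddit3, was 2.26, 2.58, 5.62 and 7.76 in naive replicates 1 to 4 and 4.61, 4.35, 3.82 and 5.87 in cast replicates 1 to 4, and Chac1, an enzyme that degrades glutathione, was 2.86, 3.87, 2.81 and 0.647 in naive replicates 1 to 4 and 4.61, 3.75, 2.59 and 4.80 in cast replicates 1 to 4. Both were low genes with overlapping groups (log2 fold change 0.14 ± 0.33, adjusted p = 0.828 for Trib3; log2 fold change 0.56 ± 0.35, adjusted p = 0.350 for Chac1). Without naive replicate 4, where Trib3 was highest and Chac1 lowest, the changes were 0.40 and 0.22. Ppp1r15a (GADD34), the phosphatase subunit that restores translation, was 34.8 ± 9.56 in naive and 28.3 ± 9.60 in cast libraries (log2 fold change -0.30 ± 0.27, adjusted p = 0.523), and its exons overlap Tulp2 on the opposite strand.

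Other genes of the pathway were read from 6 lists that hold no member, 177 tested genes in all. Of these 2 rose and 7 fell by limma (5.08%, against 12.0% of all genes), with a median log2 fold change of -0.01. Among 27 other ER folding and glycan-trimming genes 0 passed by limma, edgeR and DESeq2, and 4 were at an unadjusted p under 0.05; those with the smallest p were Pdia5, a disulfide isomerase (14.8 ± 2.75 in naive and 22.8 ± 5.28 in cast libraries, log2 fold change 0.58 ± 0.23, adjusted p = 0.143), and Ppib, the cyclophilin of the ER (159 ± 33.7 in naive and 240.4 ± 59.3 in cast libraries, log2 fold change 0.58 ± 0.23, adjusted p = 0.147). Among 22 other genes of ER-associated degradation 0 passed by these tools and 1 was at an unadjusted p under 0.05. Erlec1, an ER lectin, was not the gene so counted (unadjusted p = 0.0751 by limma). Erlec1 was at 32.0 ± 15.4 in naive and 51.7 ± 8.99 in cast libraries (log2 fold change 0.86 ± 0.43, adjusted p = 0.242), and without naive replicate 4, at 9.06, the change was 0.36 (adjusted p = 0.156). Of 48 genes of translocation and transport 0 passed by limma and edgeR and 1 by DESeq2, Sec61g, and 4 were at an unadjusted p under 0.05. Sec61g, a subunit of the translocation channel, was 16.0 ± 9.78 in naive and 40.9 ± 11.8 in cast libraries (log2 fold change 1.63 ± 0.62, adjusted p = 0.124), with naive replicate 4 at 1.94, and without that library it passed with a change of 0.91 (adjusted p = 0.0323). Sec11c, of the signal peptidase, was 13.1 ± 3.59 in naive and 20.5 ± 3.28 in cast libraries (log2 fold change 0.63 ± 0.24, adjusted p = 0.123). The groups of Sec61g did not overlap, and those of Pdia5, Ppib, Erlec1 and Sec11c did.

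Of 41 other targets of Atf4, 1 rose and 5 fell (14.6%, near the 12.0% of all genes), with a median log2 fold change of -0.07. Atf3, a stress-induced transcription factor that is also an immediate early gene, was 45.7, 21.3, 125 and 74.4 in naive replicates 1 to 4 and 3.96, 4.20, 4.77 and 2.80 in cast replicates 1 to 4. Every cast library lay below every naive library and it fell by 3.52 ± 0.46 (adjusted p = 0.00185). Atf5, a transcription factor of mitochondrial and ER stress, fell from 124 ± 24.7 to 45.4 ± 15.9 (log2 fold change -1.47 ± 0.27, adjusted p = 0.00908). Gpt2, a mitochondrial alanine transaminase, fell from 124 ± 31.9 to 58.3 ± 9.36 (log2 fold change -1.05 ± 0.21, adjusted p = 0.0117). Cth, which makes cysteine, fell from 8.11 ± 2.55 to 2.76 ± 0.445 (log2 fold change -1.24 ± 0.25, adjusted p = 0.0138). Outside the rule for named genes, and chosen after their values were seen, the amino acid transporters Slc1a5 fell (log2 fold change -1.42 ± 0.30, adjusted p = 0.0153) and Slc7a5 rose (log2 fold change 1.08 ± 0.26, adjusted p = 0.0249). Cth and Slc1a5 missed the threshold without cast replicate 3 (adjusted p = 0.0502 and 0.0519), and Slc7a5 without cast replicate 2 (0.0703) or without naive replicate 1 (0.0551) or 3 (0.0732) and with the muscle covariate (0.0537). Summed fat cell markers ran from 5865 to 10248 in naive and 2094 to 8215 in cast libraries (3 of 8 fell), and muscle markers are given above. The part of fat and muscle cells in the values of this list was not tested.

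Among 20 other sensors and their regulators 1 passed (5.0%, against 12.0% of all genes), Bcl2l11 (Bim), a killer protein of the Bcl2 family. Bcl2l11 was 22.9, 20.5, 21.99 and 19.4 in naive replicates 1 to 4 and 108, 40.2, 44.9 and 36.3 in cast replicates 1 to 4. Every cast library lay above every naive library and cast replicate 1 was far above the rest (log2 fold change 1.25 ± 0.32, adjusted p = 0.0316). The call was lost without naive replicate 1, 2 or 3 or cast replicate 3 (adjusted p = 0.0583, 0.0803, 0.0723 and 0.0693). Of 20 procollagen chains and ER enzymes that modify them, 2 fell and 0 rose, with a median of -0.26. The share that passed was near the 12.0% of all genes. The 2 were the catalytic alpha subunits that pair with P4hb in prolyl 4-hydroxylase. P4ha1 was 109.5, 92.6, 98.2 and 84.7 in naive replicates 1 to 4 and 43.8, 50.4, 64.9 and 60.9 in cast replicates 1 to 4, lower in every cast library (log2 fold change -0.81 ± 0.17, adjusted p = 0.0173). P4ha2 was 52.1, 50.5, 43.3 and 62.7 in naive replicates 1 to 4 and 14.7, 28.2, 36.8 and 22.4 in cast replicates 1 to 4, also lower in every cast library (log2 fold change -1.06 ± 0.27, adjusted p = 0.0306). P4ha1 missed the threshold without naive replicate 3 (0.0536) or cast replicate 2 (0.0546) and with the muscle covariate (0.0515), and P4ha2 without naive replicate 1 (0.0642), 2 (0.0742) or 3 (0.0549) or cast replicate 2 (0.0577) or 4 (0.0719). Whether P4hb and its partners differ in their change was not tested.

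**Figure D5:**
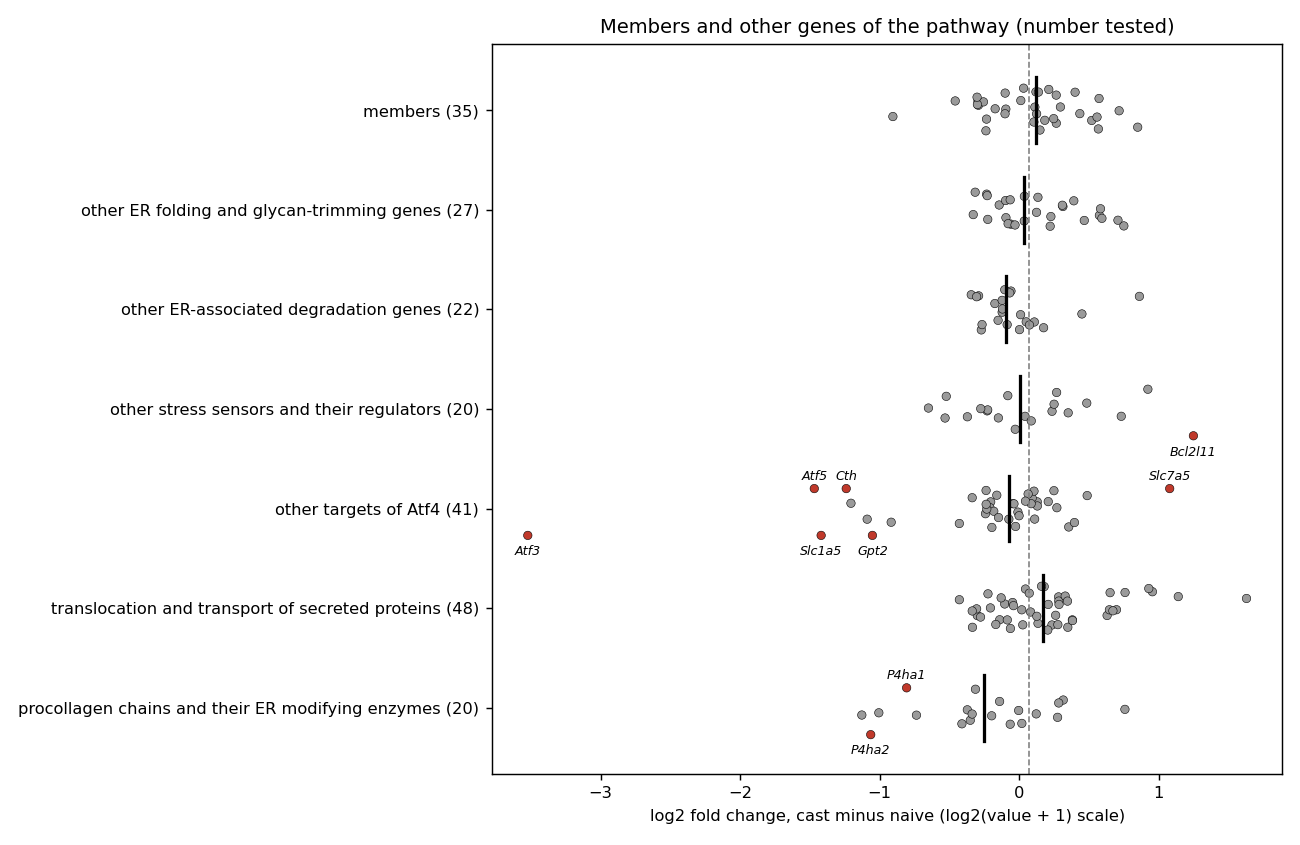
Log2 fold change (cast minus naive, log2(value + 1) scale, x axis) of each member and of each gene in the 6 lists of other pathway genes (rows, with the number tested), with list medians as bars and the median of all genes tested as a dashed line. Genes past the threshold by limma are red and named: 0 of 35 members, 6 of 41 other targets of Atf4, Bcl2l11, P4ha1 and P4ha2.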

How the data were processed

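Per the labels' protocols, posterior capsules were frozen, RNA was taken with Trizol, ribosomal RNA was depleted from 200 ng of it, and directional libraries were read as 150-nt pairs. The protocol names Trimmomatic 0.38 and Bowtie2 in RSEM on the human build hg38, whereas the submitters' processing notes list Trimmomatic 0.36, Bowtie2, RSEM, edgeR and the mouse build mm10. The statements conflict, and the gene symbols are of the mouse. Tool versions other than these and the strand setting of the counting were not given in the sources used here.

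The signal deposited by the authors is a normalised read count for every gene in every library. Divided by the value of 1 read in its library, 100% of values were whole within 0.01, and these whole reads went to edgeR and DESeq2. The lowest total of a listed gene was 8 reads.

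Values were taken to log2 after adding 1, the 15120 genes with a mean of 0.5 or more were kept, and groups were compared with limma-trend over all of them with Benjamini-Hochberg adjustment at 0.05. Gene coordinates span the whole gene in GENCODE M21 (GRCm38, the assembly of mm10). Length and GC come from the longest protein-coding transcript there, which 14851 genes (90.2%) had. All members are named; of each other list the up to 4 genes past the threshold with the smallest p are named or, where none passed, the 2 with the smallest p. The members and lists were chosen with earlier results of these data known.

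Alternatives were pseudocounts of 0.5 and 5, no filter and one 5 times stricter, 3 other scalings, limma without a trend, array weights, muscle level as a covariate, a replicate block, each library left out, edgeR and DESeq2. Leaving out cast replicates 1 and 2 together and removing each library's trend with GC were added after seeing the data. The fit was tested on simulated data. Python 3.11.15 was used with numpy 2.4.6, pandas 2.3.3 and matplotlib 3.10.9, and R 4.3.3 with DESeq2 1.42.0, edgeR 4.0.16 and limma 3.58.1. The promoter search used plain letters; protein sequences were not used here. A gene that the rule would name is not reported here.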

Additional observations from a re-analysis of the deposited data

Results flagged for a closer look

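In 100 groups of 4 libraries (35 members and 15 other named genes, naive and cast), a library far from the other 3 by Dixon's ratio was found in 5, and in 2 of the 70 groups of members. Chance flags 1 in 20 of independent groups, but these genes share the same libraries, so the counts are descriptions. Canx in naive replicate 4 was 165 against 526 to 572 in naive replicates 1 to 3, and Fkbp10 in cast replicate 4 was 56.8 against 112 to 123 in the other cast libraries. Outside the members, naive replicate 4 had Erlec1 at 9.06 against 37.4 to 41.997, cast replicate 1 had Bcl2l11 at 108 against 36.3 to 44.9, and naive replicate 1 had Atf5 at 87.2 against 132 to 140.4, each time beside the rest of its group. Both flagged values from naive replicate 4 were low. Hsp90b1 there, at 85.4 against 446 to 532 in naive replicates 1 to 3, was not flagged.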

How the results depend on the processing

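Of 23 alternatives, 18 left no member past the threshold, and 6 members passed in at least 1 (P4hb, Serpinh1, Herpud1, Derl3, Dnajb9 and Chac1). Members higher by the test were 2 with array weights, 2 with the muscle covariate (Dnajb9 and Chac1), 1 by DESeq2, 1 with the GC trend removed and 1 without naive replicate 4 (0 to 1 over libraries left out); members lower were 1 with array weights, 1 with the muscle covariate, 1 by DESeq2 and 1 with the GC trend removed (0 over libraries left out). Over all genes 1810 were called, against 3985 with array weights, 4124 with the muscle covariate, 2754 by DESeq2, 2555 with the GC trend removed, 717 without cast replicates 1 and 2, and 916 to 2665 with 1 library left out. Of other pathway genes 9 were called, against 29, 39, 17 (GC trend removed) and 1 (without cast replicates 1 and 2), and 5 to 17 with 1 library left out. Of 804 member values under alternatives 42 changed sign, in 16 members, none past the threshold (log2 fold changes follow). With the GC trend removed these were Atf6 -0.10, Dnajb9 -0.063, Ero1l -0.27, Ero1lb -0.29, Hspa5 -0.11 and Sel1l -0.085. With the muscle covariate these were Calr -0.19, Creld2 0.013, Dnajc3 0.37, Manf -0.044, Pdia6 -0.25, Sdf2l1 -0.44 and Trib3 -0.32. With array weights these were Dnajb9 -0.026, Ern1 0.0062, Ero1l -0.18, Ero1lb -0.23 and Sel1l -0.054. Without cast replicates 1 and 2 these were Creld2 0.10, Dnajc3 0.10, Ero1l -0.018, Ero1lb -0.066, Fkbp10 -0.045 and Sel1l -0.067. With quantile normalisation these were Ero1lb -0.10 and Trib3 -0.059. By edgeR these were Ero1lb -0.072. By DESeq2 these were Ero1lb -0.083. With 1 library left out at a time the ranges that crossed 0 were Creld2 -0.24 to 0.042, Ern1 -0.23 to 0.041, Ero1l -0.16 to 0.29, Ero1lb -0.22 to 0.13, Hsp90b1 -0.043 to 0.83, Hspa5 -0.10 to 0.35, Pdia6 -0.0083 to 0.39, Sel1l -0.035 to 0.091 and Trib3 -0.077 to 0.40. Derl3 was below the stricter filter and gave no value there. Deviations from the group means correlated across genes at -0.0571 to 0.0797 between naive and cast libraries of the same replicate number. Other pairs ran from -0.234 to 0.234, so pairing was neither shown nor excluded. With replicate number as a block 1371 genes were called, P4ha1 (adjusted p = 0.0553) and P4ha2 (0.0673) missed the threshold, and no member passed. Without cast replicates 1 and 2, Atf5, Gpt2, Cth, Slc1a5, Slc7a5, Bcl2l11, P4ha1 and P4ha2 also missed it. Depth limits Derl3, Trib3 and Chac1, with 10 to 77 reads in the naive group, and naive replicate 4 most of all.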
